A study of Zea mays with 20 samples.

Results

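The genes described here are the maize cellulose synthases of the primary cell wall that the array annotation names in the exact spelling cesa1 to cesa9, in any case. A probe set was taken when the platform table assigned it to 1 gene whose RefSeq symbol or synonym has that spelling. It also had to exceed a log2 value of 5, the level below which signals were treated as too dim, in at least 2 of the 20 arrays. The rule found 6 genes, cesa2, cesa3, cesa5, cesa6, cesa7 and cesa8, out of 1108 genes that the annotation names on the array. Each has 1 probe set, and each exceeded the filter on all 20 arrays, so none was lost to it. The genes CesA-1, CesA-4 and CesA-9 appear in the RefSeq table only with a hyphen and so fall outside the exact spelling; they are described beside the 6 and are counted separately. In the assembly Zm-B73-REFERENCE-NAM-5.0, per RefSeq, cesa5 and cesa6 lie on chromosome 1, cesa3 on chromosome 3, cesa2 on chromosome 6, and cesa7 and cesa8 on chromosome 7.

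Cellulose synthases are plasma membrane enzymes that join glucose from UDP-glucose into the chains of cellulose. Several kinds of subunit work together in a rosette-shaped complex that moves along the cortical microtubules. In grasses, as in Arabidopsis, one set of these genes serves the extensible primary wall of growing cells, while another set, in maize cesa10, cesa11 and cesa12, serves the thick secondary wall that fibres and vessels lay down after they stop growing.

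The tissue was the ear internode, a segment of the stalk, taken from irrigated maize in the field. It came from recombinant inbred lines bred from F288 and F271 and chosen for their alleles at loci that affect lignin content and wall degradability. RIL39 and RIL71 are unfavorable at bin 6.06, and RIL118 is unfavorable at bin 9.02. The lines with favorable alleles at every locus considered are RIL99 and RIL54. Each of these 5 lines was sampled at early silking and at emerging tassel, with 2 Affymetrix maize arrays for each of the 10 combinations, no treatment, and total RNA amplified and labelled with biotin. Each locus class rests on 1 or 2 inbred lines that also differ elsewhere in the genome, so an allele and the rest of a line's genome cannot be told apart. The labels do not say whether the 2 arrays of a group came from separate plants, so the p-values measure only the spread between these arrays, which may be technical.

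Values are log2 expression made by the authors with GCRMA, so a difference of 1 is a 2-fold change. Probe sets differ in how brightly they bind, and levels are therefore compared within a gene and never between genes. Replicate arrays correlated at 0.934 to 0.994, and the RIL118 tassel arrays correlated less with each other (0.934) than with an array of another group (up to 0.939). A check of RNA integrity, taken as EF1a signal at the 5′ end less that at the 3′ end, averaged -6.87 ± 2.06 at early silking and -6.49 ± 1.53 at emerging tassel (SD, n = 10 each). It was lowest on RIL39 silking replicate 2 (-10.5) and RIL39 tassel replicate 2 (-9.55). Per the labels, RNA input was 53.001 to 201.72 ng for early silking and 113.41 to 417.25 ng for emerging tassel. No gene was targeted in this design, and the annotation names no gene specific to internodes, so the tissue label was not tested. All 4 secondary-wall markers and all 5 photosynthesis markers on the array passed the filter, as did 11033 of 17555 maize probe sets. Other tissues could pass it too, so this does not single out an internode.

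Between emerging tassel and early silking, 4 of the 6 primary-wall genes fell, 1 rose and 1 did not pass the test. The falls were those of cesa8, cesa2, cesa6 and cesa7, from 3.27-fold for cesa8 to 1.30-fold for cesa7, and the rise was that of cesa3, by 1.48-fold. The test was limma's moderated test on 10 group means with Benjamini-Hochberg adjustment over 11033 probe sets, and an adjusted p under 0.05 is a call. Calls were common across the array: 67.7% of all tested probe sets were called for the stage change, 26.8% as lower at early silking and 40.9% as higher. The median stage change was -0.55 over the 6 genes and 0.12 over all tested probe sets. Every one of the 4 falls went the same way in all 5 lines, as 19.4% of tested probe sets did, and so did the rise of cesa3, as 32.2% did. That agreement rests on single arrays in 2 places: the change of cesa6 in RIL54 turned to 0.22 without RIL54 tassel replicate 1, and that of cesa3 in RIL118 turned to -0.05 without RIL118 silking replicate 2. In RNA from a whole tissue, fewer cells of a type and less RNA per cell cannot be told apart.

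The gene with the largest change was cesa8. Its log2 level at early silking was 8.17 at the lowest, 9.09 at the median and 10.01 at the highest of 10 arrays, against 10.18, 10.68 and 11.23 at emerging tassel. All 10 silking arrays lay below all 10 tassel arrays, a separation in that direction that 4.22% of tested probe sets showed. The mean was 9.02 ± 0.58 at early silking and 10.73 ± 0.32 at emerging tassel (SD, n = 10 each). That is a log2 change of -1.71 with a 95% interval of -2.11 to -1.30 (SE 0.19, adjusted p = 6.31e-06 in limma). Of the tested probe sets, 4.93% had a lower stage change than cesa8. In RIL99 the 2 silking arrays were at 8.64 and 8.17, against 11.10 and 10.64 on the tassel arrays. In RIL71 they were at 10.01 and 8.59, against 11.22 and 10.60, so the pair of RIL71 silking arrays lay further apart than any other pair for this gene.

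The next was cesa2, at 10.21, 11.02 and 11.94 (lowest, median and highest) at early silking, against 11.65, 12.16 and 12.59 at emerging tassel. The lone silking array inside the tassel range was RIL71 replicate 1, and the other 9 lay below every tassel array. Its mean was 11.06 ± 0.53 at early silking and 12.12 ± 0.26 at emerging tassel (SD, n = 10 each), a change of -1.06 (SE 0.14, adjusted p = 2.5e-05 in limma). The silking arrays lay wholly below the tassel arrays within each of the 5 lines. The share of all tested probe sets with that separation was not computed.

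For cesa6 the lowest, median and highest values were 10.75, 11.11 and 11.64 at early silking, against 11.33, 11.91 and 12.45 at emerging tassel. Of the silking arrays, 7 lay below every tassel array, and the overlap came from both RIL54 arrays and RIL71 replicate 1. The mean was 11.15 ± 0.29 at early silking and 11.88 ± 0.42 at emerging tassel (SD, n = 10 each), a change of -0.72 (SE 0.11, adjusted p = 7.56e-05 in limma). RIL54 was the line where cesa6 barely differed: its silking arrays read 11.47 and 11.64, against 11.96 and 11.33 at emerging tassel.

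The smallest of the 4 falls was that of cesa7. It stood at 12.98, 13.41 and 13.62 (lowest, median and highest) at early silking, against 13.36, 13.75 and 13.96 at emerging tassel. The 2 ranges overlapped, and 5 of the 10 silking arrays lay below every tassel array. The change was -0.38 (SE 0.09, adjusted p = 0.00196 in limma), with means of 13.35 ± 0.25 at early silking and 13.73 ± 0.18 at emerging tassel (SD, n = 10 each).

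The opposite direction was taken by cesa3. Its lowest, median and highest values were 10.71, 10.88 and 11.10 at early silking, against 9.69, 10.28 and 10.82 at emerging tassel. The highest tassel values were those of RIL118, at 10.82 and 10.76, within the silking range, and 5 silking arrays lay above every tassel array. The mean was 10.90 ± 0.16 at early silking and 10.34 ± 0.37 at emerging tassel (SD, n = 10 each), a change of 0.56 (SE 0.12, adjusted p = 0.000968 in limma). With RNA input as a covariate the change was 0.45 and no longer called (adjusted p = 0.0543).

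For cesa5 the stages were not told apart. Its lowest, median and highest values were 9.35, 10.24 and 10.41 at early silking, against 9.34, 10.01 and 10.60 at emerging tassel, and the ranges nearly coincided. The change was 0.15 (SE 0.13, 95% interval -0.14 to 0.43, adjusted p = 0.331 in limma), with a value above 0 in 4 lines and of -0.28 in RIL118. With RNA input as a covariate its direction turned, at -0.12, and it was again not called. The interval allows a fall of 0.14 or a rise of 0.43, so it does not show that cesa5 was equal at the stages.

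**Figure D1:**
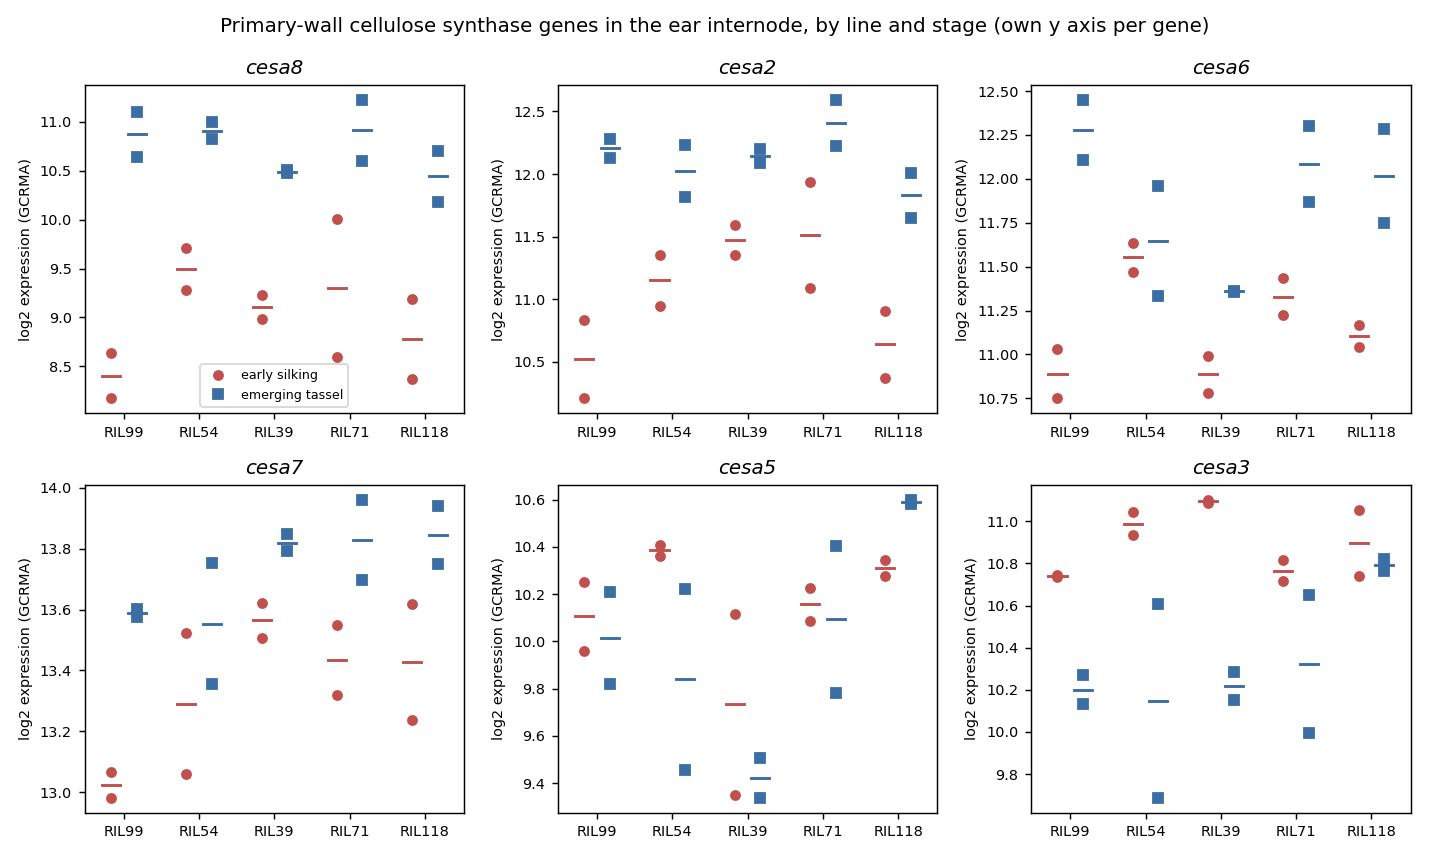
Log2 expression (y axis, a separate scale for each gene) of the 6 primary-wall cellulose synthase genes in each line (x axis). Circles are early silking arrays and squares are emerging tassel arrays, 2 of each per line, with a bar at their mean. For cesa8 all 10 silking arrays lie below all 10 tassel arrays, for cesa3 the silking arrays lie mostly above, and for cesa5 the stages overlap.

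The 3 genes known here by hyphenated names moved with the majority. CesA-1 was at 11.17, 11.61 and 12.21 (lowest, median and highest) at early silking, against 11.86, 12.28 and 12.75 at emerging tassel, a change of -0.63 (SE 0.11, adjusted p = 0.000224 in limma). CesA-4 was at 9.83, 10.77 and 11.32 at early silking, against 11.11, 11.46 and 11.78 at emerging tassel, a change of -0.79 (SE 0.14, adjusted p = 0.000338). A second probe set of CesA-4 gave -0.91. CesA-9 was at 10.14, 11.06 and 11.34 at early silking, against 11.53, 11.85 and 12.09 at emerging tassel, with no overlap between the stages and a change of -0.93 (SE 0.13, adjusted p = 4.08e-05). They were set beside the 6 after their values were seen. With them counted, 8 of 9 genes were called, 7 lower and 1 higher at early silking, and the median change was -0.72.

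The primary-wall genes changed by unequal amounts. For each pair of the 6 genes, the log2 difference between both genes on the same array was compared between stages. Any factor that scales a whole array drops out of it, but one that acts unequally on the 2 probe sets does not. The test was an exact permutation test, two-sided, that permuted the stage labels within each line (7776 arrangements, smallest possible p 0.000257), adjusted over the 15 pairs. All 15 pairs passed, with adjusted p from 0.000386 to 0.0347. The share of other gene pairs on the array that would pass was not computed. With 67.7% of tested probe sets called for stage, the count is not read as particular to these genes. The 15 pairs also reuse the same 6 genes and the same arrays. The order was cesa8, cesa2, cesa6, cesa7, cesa5 and cesa3 from the largest fall to the rise. Between its ends, cesa8 and cesa3, the changes differed by -2.27 in the same direction in 5 of 5 lines (adjusted p = 0.000386, exact permutation). The change of cesa8 minus that of cesa2, its neighbour in the order, was -0.65 (SD 0.13 over lines, 5 of 5 lines, adjusted p = 0.000643). The changes of cesa5 and cesa3, both above 0, differed by -0.41 (SD 0.10 over lines, 5 of 5 lines, adjusted p = 0.000386).

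Only 2 of these pairs depended on a single array. cesa2 and cesa6 differed in change by -0.34 (5 of 5 lines, adjusted p = 0.0347, exact permutation), which no longer passed without any 1 of 7 arrays: RIL71 tassel replicate 1, tassel replicate 2 of RIL54 or RIL118, RIL54 silking replicate 1, or silking replicate 2 of RIL99, RIL71 or RIL118 (adjusted p 0.0509 to 0.115). cesa6 and cesa7 differed by -0.35 (4 of 5 lines, adjusted p = 0.0254), which did not pass without RIL118 silking replicate 1 (adjusted p = 0.0514). The other 13 pairs passed whichever of the 20 arrays was left out.

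Set against the secondary-wall genes, cesa8 stood nearest to them in the size of its change. The secondary-wall changes were -1.83 for cesa10 (SE 0.21), -1.98 for cesa11 (SE 0.22) and -1.57 for cesa12 (SE 0.22), each called in limma (adjusted p 7.76e-06 to 4.92e-05). The same within-array test, added after these values were seen and adjusted over 18 pairs, passed for 15. Here too, the share of other gene pairs that would pass was not computed. The changes of cesa2, cesa6, cesa7, cesa5 and cesa3 each differed from those of cesa10, cesa11 and cesa12, the smallest gap being 0.51 between cesa2 and cesa12 (adjusted p = 0.0108, exact permutation). The 3 pairs that did not pass were those of cesa8, whose change minus that of cesa10 was 0.12 (SD 0.46 over lines, adjusted p = 0.581), of cesa11 0.27 (SD 0.41, adjusted p = 0.225) and of cesa12 -0.14 (SD 0.41, adjusted p = 0.504). In each of these 3 pairs the sign held in 3 of 5 lines. A p that misses the threshold does not show that cesa8 and the secondary-wall genes changed alike.

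**Figure D2:**
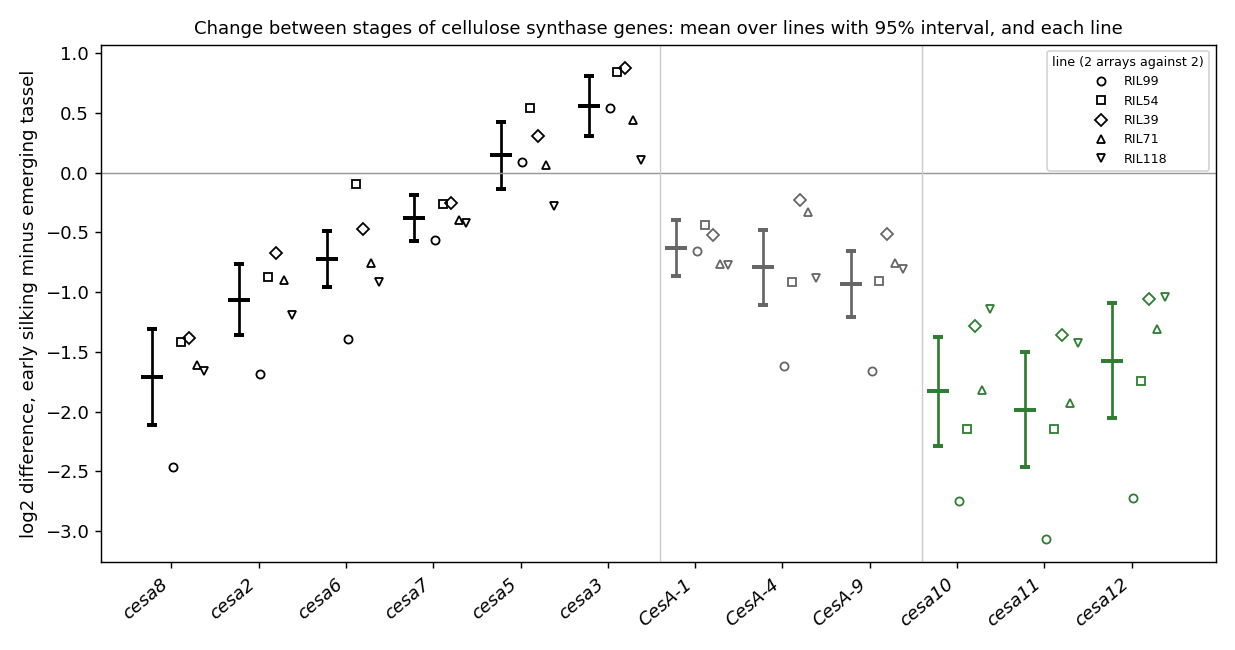
Log2 difference between early silking and emerging tassel (y axis) for the 6 primary-wall genes, the 3 genes with hyphenated names and the 3 secondary-wall genes (x axis, separated by vertical lines). Horizontal bars with whiskers are the mean over 5 lines and its 95% interval, and open symbols are single lines of 2 arrays against 2. The mean runs from -1.71 for cesa8 to 0.56 for cesa3, and RIL99 has the lowest value for cesa8, cesa2, cesa6 and cesa7.

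The stage change was next taken line by line. RIL99 had the largest falls in cesa8 (-2.47, SE 0.42), cesa2 (-1.68, SE 0.31), cesa6 (-1.39, SE 0.24) and cesa7 (-0.57, SE 0.19). The change of cesa8 in the other lines was -1.42 in RIL54, -1.38 in RIL39, -1.61 in RIL71 and -1.66 in RIL118. For cesa2 it was -0.87 in RIL54, -0.67 in RIL39, -0.90 in RIL71 and -1.19 in RIL118. For cesa6 it was -0.09 in RIL54, -0.47 in RIL39, -0.76 in RIL71 and -0.91 in RIL118. For cesa3 the value was 0.88 in RIL39, 0.84 in RIL54, 0.54 in RIL99, 0.44 in RIL71 and 0.11 in RIL118. Single arrays moved some of these values by over 1.5 times. Without RIL71 silking replicate 2 the change in RIL71 was -0.90 for cesa8 and -0.47 for cesa2. In RIL54, cesa3 was at 0.38 without tassel replicate 2 and at 1.30 without tassel replicate 1, and cesa2 was at -1.31 with RNA input as a covariate.

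Whether these changes differed among the lines was tested as an interaction of stage and line. None of the 6 genes passed it in limma, where 6.15% of tested probe sets did. cesa6 had the largest F statistic (4.05, adjusted p = 0.143), and it was the 1 gene of 6 with an unadjusted p under 0.05. Of the 11033 tested probe sets, 2760 had an unadjusted p under 0.05 in that test. The adjusted p of the other 5 was 0.452 or higher. The stage change of the bin 6.06 class differed from that of the favorable lines in 0 of the 6 genes, where 0.807% of tested probe sets were called. None of the 6 had an unadjusted p under 0.05, against 1411 of 11033 tested probe sets. For RIL118 against the favorable lines the count was also 0 of 6, where 7.84% of tested probe sets were called. Again none had an unadjusted p under 0.05, against 2896 of 11033 tested probe sets. cesa3 had the smallest adjusted p of the 6 there, its change in RIL118 minus that in the favorable lines being -0.59 (SE 0.32, adjusted p = 0.269), and it was called without RIL54 tassel replicate 1 (adjusted p = 0.0438).

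Counted within single lines, 4 of the 6 genes were called in RIL99 (background 45.2%), 3 in RIL54 (36.9%), 2 in RIL39 (27.1%), 3 in RIL71 (32.8%) and 3 in RIL118 (11.7%), by limma. The means were those of 2 arrays against 2, but the spread was pooled over all 20 arrays. With the spread of the line alone, 0 genes were called in RIL54, RIL71 and RIL118, 4 in RIL39 and 5 in RIL99. The calls that follow use the pooled spread. cesa8 was called as lower in all 5 lines, cesa2 in all but RIL39, cesa6 in RIL99, RIL71 and RIL118, and cesa7 in RIL99. cesa3 was called as higher in RIL54 and RIL39. In RIL99 the calls of cesa8, cesa2 and cesa6 held whichever of the 20 arrays was left out. That of cesa7 did not pass without any 1 of the 4 RIL99 arrays (adjusted p 0.0863 to 0.129), and cesa3 was called there without either RIL54 tassel array (adjusted p = 0.0340). The change of cesa3 in RIL99 was 0.54 with or without those RIL54 arrays, and only the pooled spread and the adjustment differed. In RIL39 neither cesa8 (adjusted p 0.0752 to 0.124) nor cesa3 (0.0879 to 0.136) passed without any 1 of the 4 RIL39 arrays.

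The other within-line calls rested on single arrays in the same way. In RIL54, cesa8 did not pass without tassel replicate 1 or 2 or silking replicate 1 of that line (adjusted p 0.0651 to 0.126). cesa3 did not pass in RIL54 without tassel replicate 2 or either silking array (0.0552 to 0.270), and cesa5 was called without tassel replicate 1 (0.0372). In RIL71, cesa8 did not pass without tassel replicate 1 or silking replicate 2 (0.0963 and 0.137), nor cesa6 without tassel replicate 2 or either silking array (0.0590 to 0.178). In RIL118, cesa8 did not pass without tassel replicate 1 or silking replicate 2 (0.136 and 0.201), cesa6 without tassel replicate 1 or either silking array (0.0787 to 0.192), nor cesa2 without either tassel array or silking replicate 2 (0.0612 to 0.213). cesa2 did not pass without any 1 of 9 arrays in RIL54 (0.0508 to 0.237) or in RIL71 (0.0510 to 0.349). In both, these were the 4 RIL39 arrays, both RIL99 tassel arrays and, of the line itself, both tassel arrays with silking replicate 1 in RIL54 and silking replicate 2 in RIL71. Without a RIL39 or RIL99 array the change of cesa2 stayed at -0.87 in RIL54 and -0.90 in RIL71. Only the pooled spread and the adjustment differed there. cesa2 also did not pass with no filter (0.0698 in RIL54 and 0.0692 in RIL71) or after quantile normalization (0.0607 in RIL54 and 0.0514 in RIL71), nor did cesa7 in RIL99 after quantile normalization (0.0548).

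Over the 20 arrays, the sum of squares of each gene was split into stage, line, their interaction and the spread between replicate arrays. Stage made up 78.7% for cesa8, 64.4% for cesa2, 52.7% for cesa6, 52.0% for cesa3, 45.7% for cesa7 and 3.60% for cesa5. Line was the largest part for cesa5, at 52.6%, against 6.27% for cesa8. The interaction was largest for cesa6, at 18.8%, and the replicate spread was largest for cesa5, at 31.1%. The split describes these 20 arrays and carries no test.

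**Figure D3:**
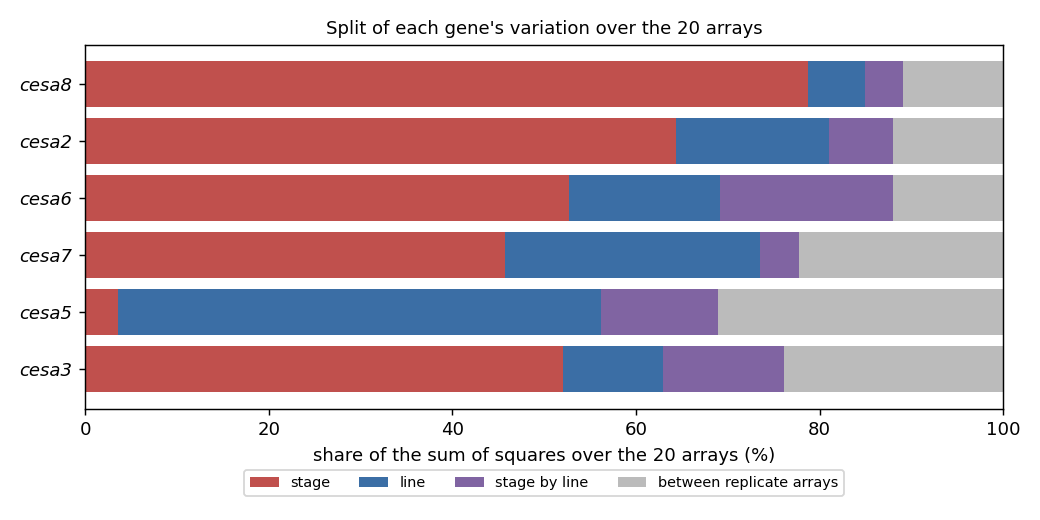
Share of each gene's sum of squares over the 20 arrays (x axis, %) that goes to stage, line, the interaction of stage and line, and the spread between replicate arrays, for the 6 primary-wall genes (y axis). Stage is the largest part in 5 genes, and line is the largest in cesa5.

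The 10 groups of line and stage were also put in order for each gene. For cesa8 the silking means ran from 8.41 in RIL99 to 9.49 in RIL54, and the tassel means from 10.44 in RIL118 to 10.91 in RIL54 and RIL71. Of the 9 pairs of neighbouring groups in that order, 7 had overlapping arrays, and one of the clear steps was that between the stages. For cesa5 the stages were mixed through the order: RIL118 at emerging tassel was highest (10.60 and 10.58), and the 2 lowest groups were those of RIL39, with 10.12 and 9.35 at early silking and 9.51 and 9.34 at emerging tassel. The 3 steps without overlap in cesa5 were the 3 at the top of its order, and the other 6 neighbours overlapped. For cesa6 the highest group was RIL99 at emerging tassel (12.28) and the lowest was RIL39 at early silking (10.89), and 6 of 9 neighbours overlapped. Neighbours overlapped in 8 of 9 pairs for cesa2 and for cesa7, and in 7 of 9 for cesa3.

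RIL39 and RIL71, the bin 6.06 class, were compared with RIL99 and RIL54 to ask which genes differ between these allele classes, both stages weighted equally. None of the 6 genes passed, where 18.3% of tested probe sets were called by limma. Against 3460 of 11033 tested probe sets with an unadjusted p under 0.05, there were 2 of the 6 genes. One was cesa7, at 13.66 ± 0.21 in the bin 6.06 class and 13.36 ± 0.29 in RIL99 and RIL54 (SD over 8 arrays each), which gave 0.30 (SE 0.10, adjusted p = 0.0514 in limma). The other was cesa2, at 11.88 ± 0.50 in the bin 6.06 class and 11.48 ± 0.76 in RIL99 and RIL54, which gave 0.41 (SE 0.15, adjusted p = 0.0857). Both crossed the threshold under other settings. cesa7 was called without any 1 of RIL54 tassel replicate 1, RIL71 tassel replicate 2, RIL54 silking replicate 2 and both RIL118 silking arrays (adjusted p 0.0233 to 0.0484), without the whole of RIL118 (0.0491), after quantile normalization (0.0262), and with RNA input (0.0271) or the EF1a signal (0.0257) as a covariate. Without RIL118 arrays the difference of cesa7 stayed at 0.30, and only the pooled spread and the adjustment differed. cesa2 was called without RIL71 silking replicate 2 (0.0284) and with the RNA amount as a covariate (0.0398). The difference of cesa8 was 0.03 with a 95% interval of -0.42 to 0.48.

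RIL118 was set against RIL99 and RIL54 in the same way. None of the 6 genes passed, where 20.7% of tested probe sets were called by limma. Against 3866 of 11033 tested probe sets with an unadjusted p under 0.05, there was 1 of the 6 genes. It was cesa7 at 0.27 (SE 0.12, adjusted p = 0.125). The difference was 0.36 for cesa5 (SE 0.18, adjusted p = 0.164) and 0.33 for cesa3 (SE 0.16, adjusted p = 0.167), neither past the threshold. cesa3 was called without RIL54 tassel replicate 1 (adjusted p = 0.0219).

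Lines of the same allele class were also compared with each other, though such lines differ elsewhere in the genome. Between RIL54 and RIL99 none of the 6 genes passed, where 16.0% of tested probe sets were called. None of the 6 had an unadjusted p under 0.05, against 3243 of 11033 tested probe sets. The value furthest from 0 was that of cesa8, 0.56 (SE 0.29, adjusted p = 0.229 in limma). Between RIL71 and RIL39, 1 of the 6 genes was called, where 16.6% of tested probe sets were. It was cesa6, with 11.43 and 11.22 at early silking and 11.87 and 12.30 at emerging tassel in RIL71, against 10.99 and 10.78 at early silking and 11.36 and 11.36 at emerging tassel in RIL39. At each stage the RIL71 arrays lay above the RIL39 arrays, though the share of all tested probe sets that did so was not computed. The difference was 0.58 (SE 0.17, 95% interval 0.21 to 0.95, adjusted p = 0.0344).

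The size of this difference moved little, but its call was lost in 10 of 27 alternatives: with quantile-normalized values (0.52, adjusted p = 0.0688), with RNA input as a covariate (0.51, adjusted p = 0.0694), with the EF1a signal as a covariate (0.56, adjusted p = 0.107) and without RIL39 tassel replicate 2 and silking replicate 2 together (0.53, adjusted p = 0.257). It was also lost without any 1 of both RIL39 tassel arrays, RIL39 silking replicate 2, RIL71 tassel replicate 2 and both RIL71 silking arrays, where the difference was 0.47 to 0.64 (adjusted p 0.0595 to 0.122). The EF1a 5′ less 3′ signal averaged -5.64 in RIL71 and -8.14 in RIL39 (n = 4 arrays each). The part of that signal in the cesa6 difference was not tested. The difference of cesa5 was 0.55 (SE 0.21, adjusted p = 0.0885), which did not pass but did so without RIL39 silking replicate 1 (adjusted p = 0.0306).

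**Figure D4:**
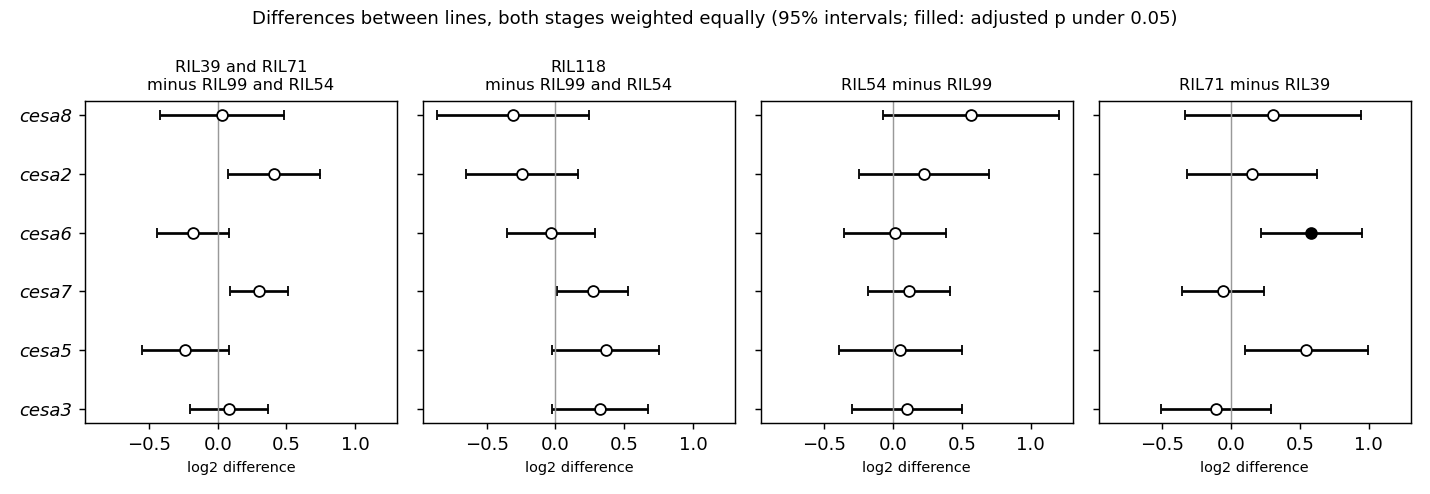
Log2 difference between lines (x axis) with its 95% interval for the 6 primary-wall genes (y axis), both stages weighted equally, in 4 comparisons. The filled symbol is the call at an adjusted p under 0.05, which is cesa6 in RIL71 against RIL39, and open symbols did not pass.

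For each gene, the 3 named genes with the most similar pattern were found by Pearson's r over the 20 arrays among 747 other named genes. All points share these 20 arrays and their stage contrast, and no p is given. The genes nearest to cesa2 were Bk2L3, a COBRA-like gene (r = 0.944), CesA-1 (0.940) and the beta tubulin tub4 (0.929). Those nearest to cesa7 were CesA-9 (0.908), the secondary-wall gene cesa12 (0.855) and gpm399a (0.836). Those nearest to cesa8 were gar2 (0.955), prp2 (0.942) and fae1 (0.938). For cesa6 the values were lower, with the small GTPase gene ypt2 at 0.848, gte102 at 0.822 and gpm455 at 0.821. The genes nearest to cesa3 were cax1, a cation exchanger (0.905), ys1, a transporter of iron bound to phytosiderophores (0.904), and sps1, a sucrose phosphate synthase (0.891). cesa5 had the weakest matches, TCTP (0.816), the xyloglucan endotransglycosylase xet1 (0.774) and the sucrose transporter sut1 (0.774).

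Other genes of cellulose and wall synthesis were counted for the stage change, at the brightest probe set of each gene. Their counts are to be read against the 26.8% of tested probe sets called lower and the 40.9% called higher. All 5 measured genes of secondary-wall cellulose were called lower at early silking, with a median of -1.83; the COBRA-like gene bk2 averaged 10.43 ± 1.12 at early silking and 12.67 ± 0.47 at emerging tassel. Of 3 sucrose synthase genes, which supply UDP-glucose, sus1 was lower, with a change of -0.41 (SE 0.06, adjusted p = 4.4e-05 in limma), and sh1 (0.04) and sus2 (-0.16) did not pass. Of 6 beta tubulins, the building blocks of the microtubules that guide the synthase complexes, 5 were lower, with a median of -1.32, and tub7 (-0.18, adjusted p = 0.0526) did not pass. Of 4 alpha tubulins, 3 were lower, with a median of -0.55, and tua5 (adjusted p = 0.962) did not pass. Of 12 wall-loosening genes on the array, 9 passed the filter. Among these, 8 expansins were lower and xet1 was higher (0.66, SE 0.14), with a median of -2.39. That median was the value of expa3, which averaged 2.09 at early silking and 4.48 at emerging tassel. Both means lie under the filter level of 5, as does that of expa4 at early silking (2.56), so the size of these changes is uncertain. Of 9 cell division genes on the array, 6 passed the filter and 1 of those was called, mcm6 of DNA replication. It averaged 6.05 ± 0.65 at early silking and 5.04 ± 0.85 at emerging tassel (SD, n = 10 each, adjusted p = 0.0151 in limma). The median of all tested probe sets was 0.12. None of the cellulose synthase-like genes listed was matched in the annotation used.

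Genes listed as markers of other tissues were counted for the stage change as well, against the same background of 26.8% called lower and 40.9% called higher. All 4 markers of cells that form secondary walls, which are also in the secondary-wall list above, were lower at early silking, and their summed log2 level was 11.72 to 14.47 at early silking, against 14.59 to 15.42 at emerging tassel. Of 4 meristem markers 3 were higher and 1 lower (summed 11.20 to 11.84 at early silking against 10.48 to 11.68 at emerging tassel). Of 6 epidermis markers on the array 3 passed the filter, and 2 of those were lower. The sum over all 6 was 8.79 to 9.97 against 9.45 to 10.58, in the same order. Of 6 names listed for kernel, 3 were on the array and 2 passed the filter, emp2 and gz27. Both were lower (10.64 to 11.18 against 11.08 to 11.69, summed over the 3 on the array). That sum lay close to the level of emp2 alone, which averaged 10.67 at early silking and 11.15 at emerging tassel. Whether emp2 and gz27 mark kernel tissue was not tested, so these values do not measure kernel tissue. None of the 5 photosynthesis markers was called (14.61 to 16.16 against 15.12 to 16.22). The part of these markers in the changes of the primary-wall genes was not tested.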

How the data were processed

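Total RNA of 20 samples was measured on Affymetrix maize arrays. The authors' deposited table gives 1 log2 value for each probe set and array, from GCRMA per the submitters' processing notes; the GCRMA version is not given in the sources used here. The values run from 1.37 to 15.2 and were not transformed further. The precision of every value is limited by the number of arrays.

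The table holds 17555 maize probe sets, of which 1452 have 1 gene in the platform annotation, 1 has several and 16102 are unnamed here; 179 control probe sets were left out. Of 1108 gene IDs, 1060 matched the RefSeq table. Probe sets above 5 on at least 2 arrays (11033) entered a linear model of 10 group means in limma (version 3.58.1, R 4.3.3), with no replicate block (10 residual and 2.37 prior degrees of freedom). Intervals are at 95%. The spread is that between arrays of a line and stage, so it leaves out the spread between lines. Group means carry the SD over arrays. The replicate numbers were not taken as pairs, since over 45 pairs of groups the correlation of same-numbered deviations ran from -0.436 to 0.512, and 16 exceeded 0.1. The fit and the permutation test were tested on simulated data.

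The genes, lists and comparisons were chosen with earlier results of these data known. The named genes were every gene the rule finds, the 3 most similar named genes of each, and up to 3 called genes of each list; list genes that did not pass were named after their values were seen. Tried as alternatives were no filter, quantile normalization, median centring, the replicate block, the RNA amount as a covariate, leaving out each array, leaving out RIL118, the line as a random block and, within a line, the spread of that line alone. The EF1a covariate, the RIL39 arrays left out, the hyphenated names and the test against the secondary-wall genes were added after seeing the data.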

Additional observations from a re-analysis of the deposited data

Results flagged for a closer look

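In cesa5 the lowest silking array, RIL39 replicate 2 at 9.35, lay far below the other 9 silking arrays, by the gap to its neighbour against the whole range. It was the 1 case among 12 sets of 10 arrays examined (6 genes at 2 stages), and chance gives about 1 in 20, a rate that ignores that the 10 arrays come from 5 lines. RIL39 also held the lowest group at emerging tassel, at 9.51 and 9.34. The same array had the lowest EF1a 5′ minus 3′ signal of all 20 (-10.5); the part of that signal in the cesa5 value was not tested.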

How the results depend on the processing

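The stage changes of cesa8, cesa2, cesa6 and cesa7 kept their direction and their call in all 29 alternatives, and no result reversed where a call had been made. Leaving out 1 array gave 7051 to 7600 probe sets called for stage with 5 of the 6 genes, and 14 to 15 of the 15 unequal pairs. Within lines it gave 3239 to 5213 probe sets and 3 to 5 genes in RIL99, 2043 to 4272 and 0 to 3 in RIL54, 1233 to 3266 and 0 to 2 in RIL39, 1566 to 3858 and 0 to 3 in RIL71, and 180 to 1497 and 0 to 3 in RIL118. It gave 320 to 1195 probe sets and 0 genes for stage by line, 1507 to 2281 and 0 to 1 for bin 6.06, 1301 to 2925 and 0 to 1 for RIL118, 55 to 206 and 0 for bin 6.06 by stage, 172 to 1585 and 0 to 1 for RIL118 by stage, 1105 to 1958 and 0 for RIL54 against RIL99, and 1030 to 2025 and 0 to 2 for RIL71 against RIL39. With the spread of a line alone, 365 probe sets and 0 genes were called in RIL54, 680 and 0 in RIL71, 15 and 0 in RIL118, 4194 and 4 in RIL39, and 5449 and 5 in RIL99. With RNA input as a covariate, 2055 probe sets were called in RIL54, 788 in RIL118 and 423 for RIL118 by stage, with 1 gene in RIL39, 2 for bin 6.06 and 0 for RIL71 against RIL39. Without the 2 RIL39 arrays of lowest EF1a signal, which leaves fewer arrays, the probe sets called were 315 in RIL39, 713 in RIL118, 181 for stage by line, 1242 for bin 6.06, 38 for bin 6.06 by stage, 302 for RIL118 by stage and 682 for RIL71 against RIL39, and the genes 0 in RIL39, 1 in RIL71, 0 in RIL118 and 0 for RIL71 against RIL39. With the EF1a covariate, RIL71 against RIL39 gave 1159 probe sets and 0 genes, and bin 6.06 gave 1 gene. Quantile normalization gave 1 gene for bin 6.06 and 0 for RIL71 against RIL39, leaving out RIL118 gave 1 gene for bin 6.06, and no filter gave 1 gene in RIL39. Where no reason is given, the cause was not tested. With CesA-1, CesA-4 and CesA-9 counted, 8 of 9 genes were called for stage (background 67.7%). Within lines the count of 9 was 7 in RIL99 (45.2%), 5 in RIL54 (36.9%), 2 in RIL39 (27.1%), 4 in RIL71 (32.8%) and 3 in RIL118 (11.7%). The replicate block gave 7384 probe sets for stage, against 7466 without it, and changed no call of the 6 genes and moved no count by over 1.5 times. Each of the 6 genes has 1 probe set, so other probe sets of a gene could not be compared. Within a line the SE of a change ran from 0.19 for cesa7 to 0.42 for cesa8, which limits what 2 arrays a group can show. The test against the secondary-wall genes was not repeated with arrays left out.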
